A study of Homo sapiens with 26 samples.

Results

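GSPT1, CLNS1A and NAP1L1 are named by the study as target genes of MYCN, and they were examined here together with 7 partners that act in the same 3 processes. The set was chosen by symbol and held GSPT1, GSPT2, ETF1, CLNS1A, PRMT5, WDR77, NAP1L1, NAP1L4, NAP1L5 and SET, which are 10 of the 26485 genes in the count tables. RNA came from KELLY, a human neuroblastoma cell line in which MYCN is amplified. Lines carried a lentiviral vector (F1HUTG) that switches on with doxycycline and was either empty (EV) or encoded a hairpin against RUNX1T1, sh4 or shAMB, and each of the 3 lines had 3 libraries with DMSO and 3 with doxycycline after 72 h. A further 8 libraries came from KELLY tumours grown in immunodeficient mice, 4 labelled control (WT, control food) and 4 labelled RUNX1T1 KO, for which the labels give doxycycline in the food. Doxycycline and the KO label thus coincide in the tumours, without an empty vector group on doxycycline. Their effects cannot be told apart there. Titles of the tumour libraries name no hairpin. The paper states that its KELLY RNA sequencing used its first hairpin both in culture and in tumours. By that account the tumours share a hairpin with a culture line. It based that hairpin on an Ambion sequence, which the name shAMB may denote. In that case shAMB and the tumours share a hairpin, and likeness between them is no independent repeat. The genotype label of the sh4 libraries spells the target RUNX1T5. Each line is a selected population of transduced cells, and all 8 groups share the amplified MYCN of KELLY. Culture columns are headed Neg or Pos, these words were read as DMSO and doxycycline, and the direction of each culture comparison rests on that reading.

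The members fall into 3 groups by role. ETF1 (eRF1) recognises stop codons on the ribosome, and GSPT1 (eRF3a) or its paralog GSPT2 (eRF3b) is the GTPase that works with it to release the finished protein. CLNS1A (pICln) carries spliceosomal Sm proteins to the methylosome, in which PRMT5 is the arginine methyltransferase and WDR77 (MEP50) its partner subunit. NAP1L1, NAP1L4 and NAP1L5 belong to the nucleosome assembly protein family of histone chaperones, and SET is a related chaperone that also inhibits the phosphatase PP2A. MYC-family proteins bind DNA with MAX at E-boxes, and dividing cells draw heavily on translation, splicing and chromatin assembly alike.

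The E-box CACGTG was searched from 1000 bases before to 1000 bases after each RefSeq start site (GRCh38), since the study calls 3 of the members MYCN targets. It reads the same on both strands. Of 16199 genes with such a window, 29.1% held at least 1 match, against 4 of the 10 members (CLNS1A, NAP1L1, SET and WDR77). Each matching stretch is shown in the direction of transcription, with the E-box in capitals.
WDR77 site, chr1:111449229-111449258, minus strand: tcagaggtgcacCACGTGgggtttgctgcc
SET site nearest the start, chr9:128683447-128683476, plus strand: gtgaggcaacagCACGTGtttaaatctttt
SET site farther from the start, chr9:128683565-128683594, plus strand: ctgcgggggtttCACGTGaaaccaggaggt
NAP1L1 site, chr12:76083924-76083953, minus strand: ggcttcgctccaCACGTGgtaatgggcttc
CLNS1A site, chr11:77636925-77636954, minus strand: cttttatttggcCACGTGgagcactttggt
The WDR77 match began 10 bases after the start site, in the 5′ UTR, and the SET matches began 35 and 153 bases after the RefSeq start, ahead of the canonical GENCODE v44 transcript. Those of NAP1L1 and CLNS1A lay 744 and 852 bases downstream, in introns of the canonical transcripts. In the shorter window of 300 bases around the start, which held the E-box in 8.63% of genes, only WDR77 and SET of the 10 members had it. GSPT1, GSPT2, ETF1, PRMT5, NAP1L4 and NAP1L5 had no CACGTG in the longer window. For GSPT1 the RefSeq start used, at 11916654, lies upstream of the GENCODE gene, which begins at 11916082. The first 1000 bases after that GENCODE start were therefore not searched in full. A match describes the sequence and is no evidence of binding.

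GSPT1 lies on chromosome 16 at 11868128 to 11916082 (minus strand) and GSPT2 on chromosome X at 51743442 to 51746232 (plus strand), where it consists of 1 exon. ETF1 lies on chromosome 5 at 138506095 to 138543236, CLNS1A on chromosome 11 at 77514936 to 77637794, PRMT5 on chromosome 14 at 22920525 to 22929408 and WDR77 on chromosome 1 at 111439890 to 111449256, all on the minus strand. NAP1L1 lies on chromosome 12 at 76036585 to 76084735, NAP1L4 on chromosome 11 at 2944431 to 2992377 and NAP1L5, which has 1 exon, on chromosome 4 at 88695913 to 88697829, again on the minus strand. SET lies on chromosome 9 at 128683424 to 128696400 on the plus strand. Of the PRMT5 exon bases, 28.2% overlap the antisense gene PRMT5-AS1, and PRMT5 was the only member whose expected counts were not whole in most libraries (whole in 1 of 26). Its values are therefore uncertain, as are those of WDR77, of whose exon bases 25.1% overlap a non-coding RNA on the same strand. Expected counts, which the tables give to 2 decimals, were whole in 26 of 26 libraries for GSPT1 and for GSPT2. SET has 19 named processed copies in RefSeq, none of them in the count table, and reads from such copies could not be told from its own.

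RNA of RUNX1T1, the target of the hairpins, did not pass the test in any within-line or tumour comparison. The paper reports lower RUNX1T1 protein in KELLY cells after induction of either hairpin, and its loss in stained KELLY tumours. Protein is not in the data used here, so the RNA values do not show whether it fell. The log2 fold changes of RUNX1T1 RNA in EV, sh4, shAMB and the tumours were −0.16, −0.11, 0.06 and −0.23 (edgeR adjusted p 0.672, 0.118, 0.378 and 0.229). Groups are therefore called by their labels throughout. Some alternatives did call RUNX1T1. With length and GC trends removed, RUNX1T1 was lower in sh4 (−0.29, adjusted p 0.00101) and in the tumours (−0.34, adjusted p 0.0220), and without the sh4 doxycycline library 2 it was lower in sh4 (−0.16, adjusted p 0.0434). With TPM, RUNX1T1 was higher in shAMB (0.24, adjusted p 0.00537). Between lines, the doxycycline effect on RUNX1T1 was higher in shAMB than in EV (0.21, adjusted p 0.0353, a call lost in 14 of 19 alternatives), and before induction RUNX1T1 was lower in sh4 than in EV (−0.29, adjusted p 0.0144). MYCN was higher and MAX lower in 3 comparisons. MYCN rose by 0.68 in sh4, 1.57 in shAMB and 1.46 in the tumours, and MAX fell by 0.22, 0.59 and 0.48. Total expected counts were 35115915 to 54736733 in culture and 47346063 to 62378060 in the tumours. Endothelial and haematopoietic markers summed to at most 2.27 CPM in any library, with TIE1 and CD3E at 0 in several groups. All markers are human genes counted on a human build, so in the tumours they do not measure cells of the mouse host. Fibroblast and Schwann cell markers summed to 62.1 to 81.8 CPM in sh4 with doxycycline against 39.96 to 49.8 with DMSO. In shAMB they summed to 31.1 to 38.3 CPM with doxycycline against 44.1 to 52.3. Only 4 of these 8 markers had a mean of at least 1 CPM in each culture group. SOX10 was at 0 in both sh4 groups and COL1A2 in both EV groups, so the sums rest on few genes and identify no cell type. In tumours the sums were 10.44 to 18 CPM in controls and 9.82 to 15.04 in those labelled KO. The part of these markers in the results for the members was not tested.

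All 10 members passed the filter on low counts in both tables. CPM below is the count of a gene scaled to a common library total after TMM, and fold changes are on the log2 scale. Standard errors (SE) were derived from the log2 fold change and the F statistic of edgeR's quasi-likelihood test. Confidence intervals were built from these SE with the t distribution. The p-values of that test were adjusted by the Benjamini-Hochberg method over the 14905 genes tested in culture or the 15960 tested in tumours. Genes are called changed when this adjusted p is below 0.05. In EV, 0 of 10 members changed with doxycycline, against 0.0939% of all genes, and 0 had an unadjusted p under 0.05. DESeq2 also called 0. In sh4, 4 of 10 changed (2 higher, 2 lower), against 40.9% of all genes, and in shAMB 9 of 10 changed, against 66.0%. Of these, 8 were lower, where 28.4% of all genes were lower. In tumours labelled KO, 6 of 10 changed, against 41.1% of all genes, and 5 of them were lower, against 19.9%. The lower members in shAMB and tumours include GSPT1, CLNS1A and NAP1L1, whose fall the paper had reported. Their part in these counts is therefore no independent result. Of these genes, only NAP1L1 was called lower in sh4. The median log2 fold change of the members was −0.36 in shAMB and −0.26 in tumours, against 0.10 and 0.02 over all genes tested, whereas in sh4 it was −0.01 against −0.00462. For each change called within a line or in the tumours, the libraries of the groups did not overlap.

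**Figure D1:**
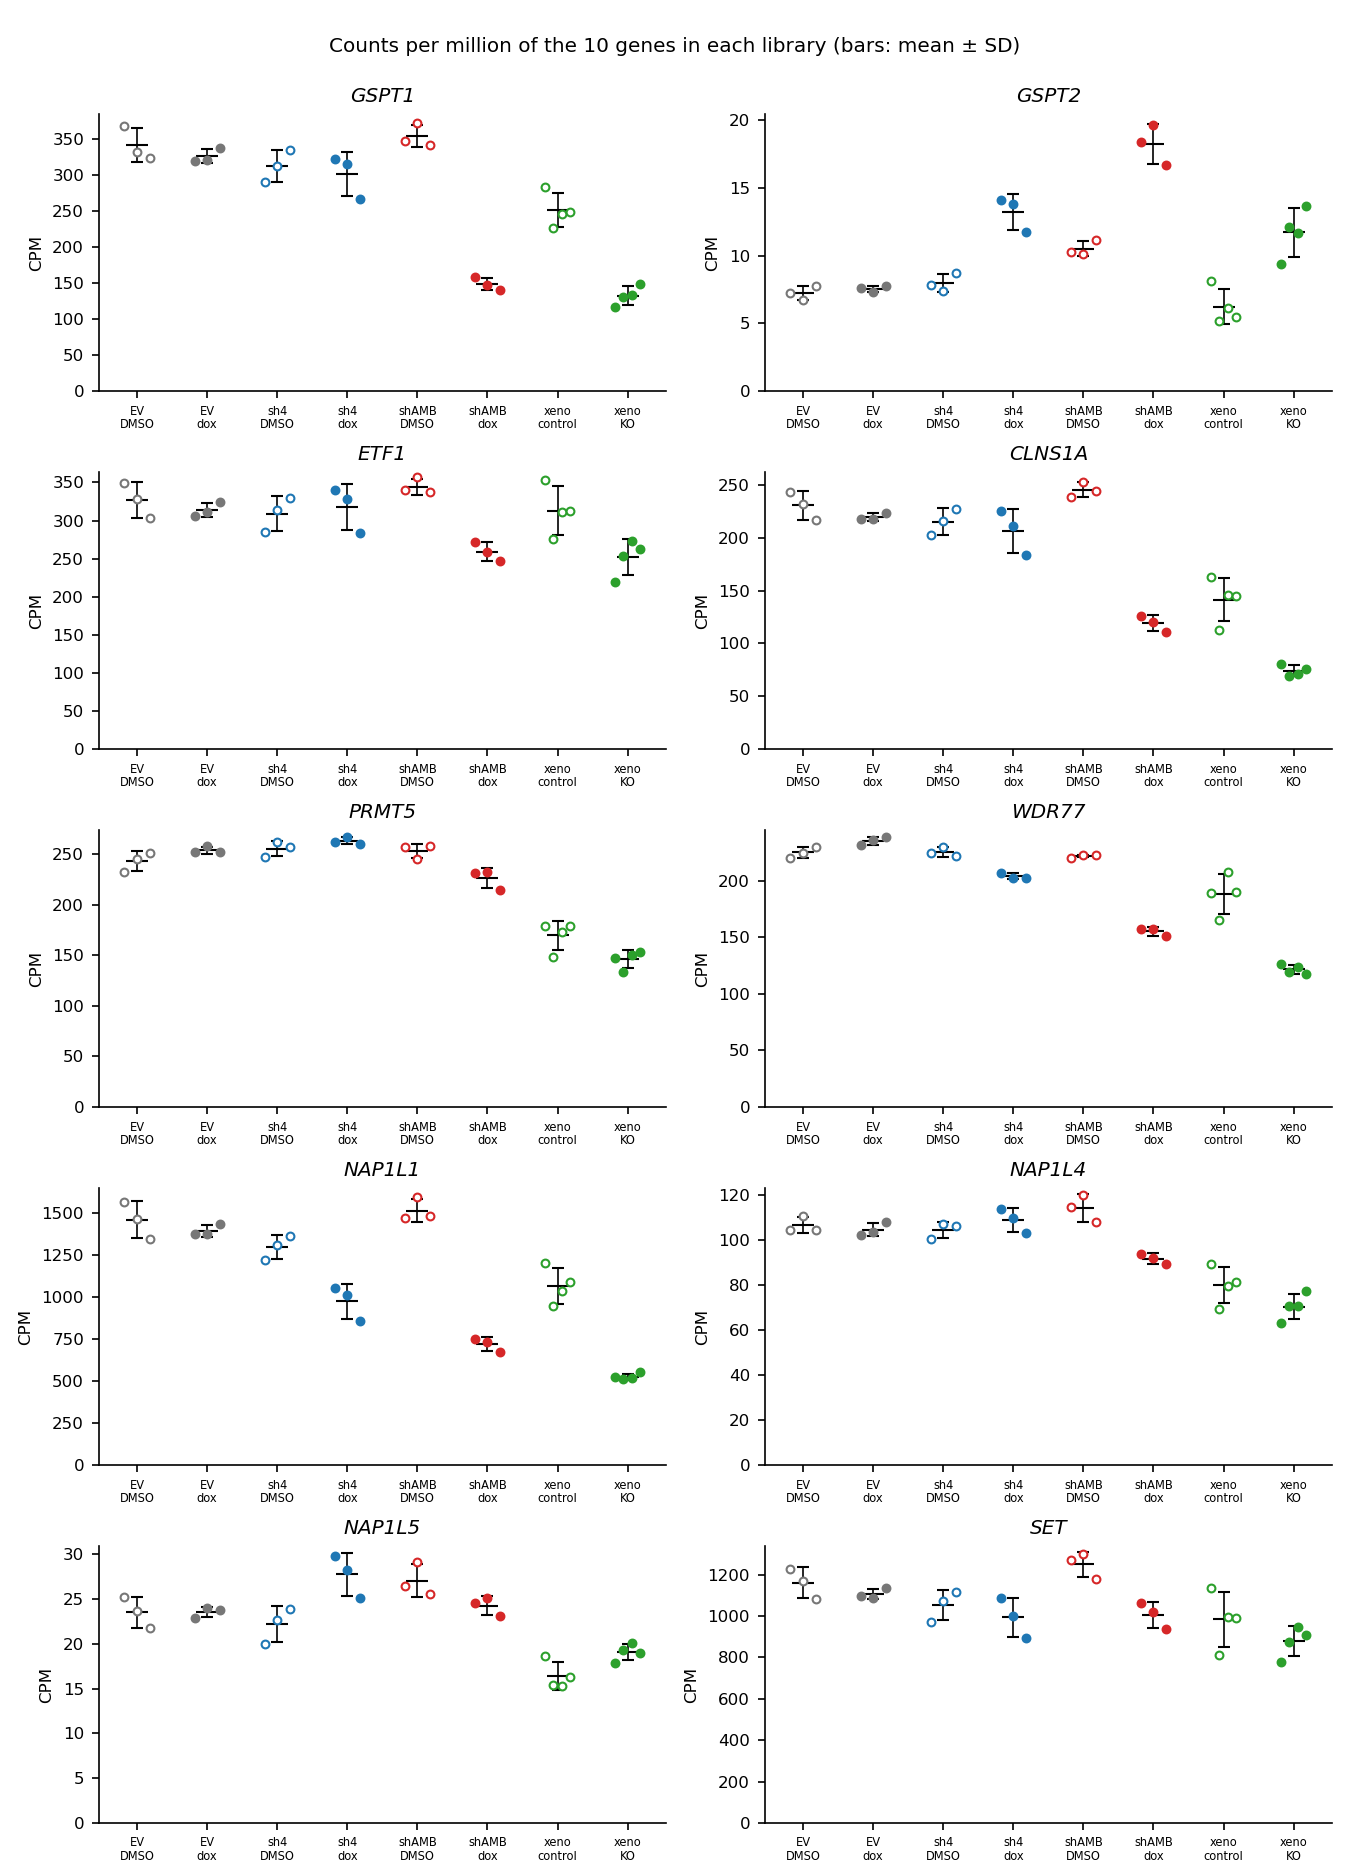
CPM (vertical axes, from 0) of the 10 members in each library by group, with open points for DMSO or control tumours, filled points for doxycycline or tumours labelled KO, and bars for mean ± SD. GSPT1, CLNS1A and NAP1L1 sit lowest in shAMB with doxycycline and in KO tumours, GSPT2 rises in sh4, shAMB and the tumours, and the EV groups lie close together.

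**Figure D2:**
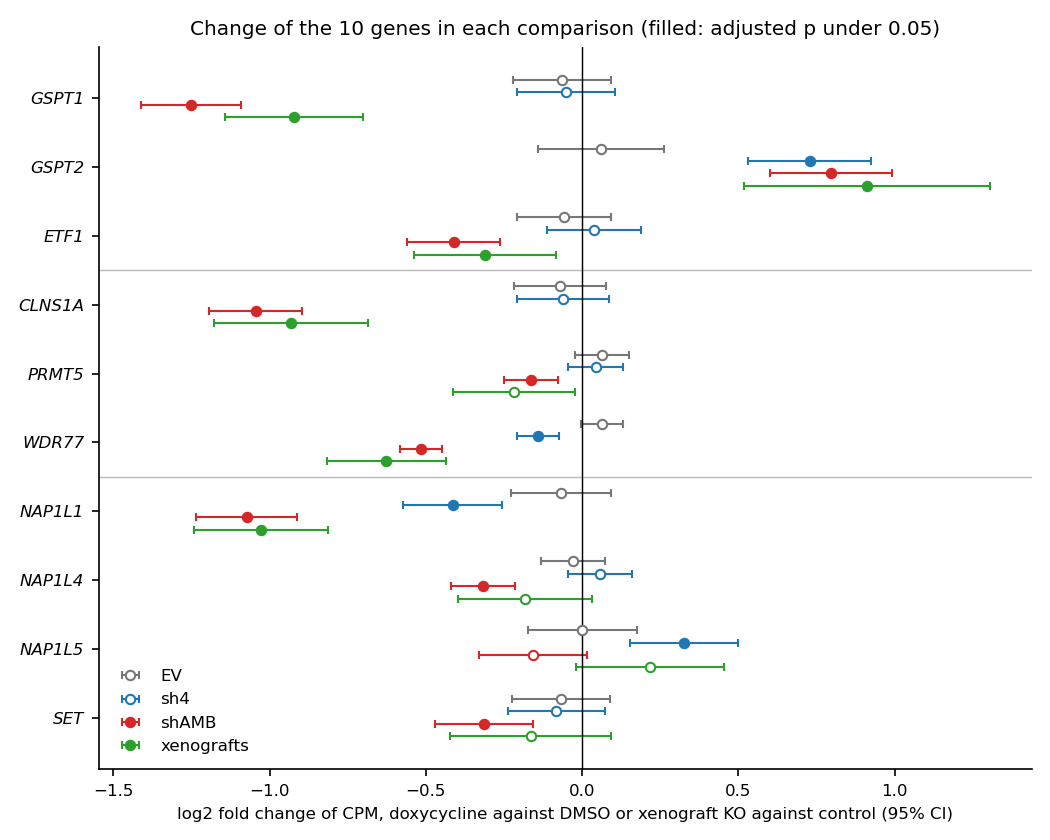
Log2 fold change (horizontal axis) with its 95% confidence interval for each member in EV, sh4, shAMB and the tumours, filled where the adjusted p-value is under 0.05. The 3 genes named by the study lie near −1 in shAMB and the tumours, GSPT2 lies to the right of 0 in sh4, shAMB and the tumours, and in sh4 only NAP1L1, WDR77, GSPT2 and NAP1L5 are filled (with TPM in place of counts WDR77 in sh4 turns to 0.03 and PRMT5 in shAMB to 0.02).

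Translation termination showed the widest split within a role, with GSPT1 lower and its paralog GSPT2 higher in the same libraries. In shAMB, GSPT1 was at 348, 372 and 343 CPM with DMSO and at 158, 147 and 141 CPM with doxycycline. No doxycycline library came near a DMSO library, and the mean fell from 354 ± 15.7 to 149 ± 8.64 CPM (SD, n = 3 each). The log2 fold change was −1.25 (SE 0.0753, edgeR adjusted p 1.2e-09), which leaves 42.0% of the DMSO level. In bulk RNA, fewer cells that make a transcript and less of it per cell cannot be told apart, here and for all members below.

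The tumours gave GSPT1 a similar fall. Control tumours held 284, 227, 246 and 249 CPM and tumours labelled KO 117, 131, 134 and 149 CPM, again without overlap. The log2 fold change was −0.92 (SE 0.1003, adjusted p 6.6e-05). In sh4, GSPT1 held 290.5, 312 and 336 CPM with DMSO and 322, 316 and 266.5 CPM with doxycycline. These ranges overlapped, and the log2 fold change of −0.05 (95% confidence interval −0.21 to 0.10, adjusted p 0.596) excluded a fall as large as in shAMB. With trends on gene length and GC content removed from each library it was −0.24 in sh4 (adjusted p 2.5e-07), so the sh4 call for GSPT1 depends on that step. EV libraries held 368, 332.5 and 323.5 CPM with DMSO and 320, 321 and 338 CPM with doxycycline.

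GSPT2, which encodes the other form of eRF3, moved the opposite way at a much lower level. In sh4 it was at 7.82, 7.41 and 8.74 CPM with DMSO and at 14.1, 13.8 and 11.7 CPM with doxycycline. In shAMB it was at 10.3, 10.1 and 11.1 CPM with DMSO and at 18.4, 19.6 and 16.7 CPM with doxycycline. Every doxycycline library of both hairpin lines lay above every DMSO library of its line. The log2 fold changes were 0.73 (SE 0.0926, adjusted p 1.2e-05) and 0.80 (SE 0.0919, adjusted p 1.8e-06).

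In tumours GSPT2 rose from 8.11, 5.19, 6.14 and 5.49 CPM in controls to 9.40, 12.1, 11.7 and 13.7 CPM in those labelled KO (log2 fold change 0.91, SE 0.178, adjusted p 0.00216). The EV line held 6.72 to 7.78 CPM over its 6 libraries, with a log2 fold change of 0.06. GSPT2 was also the member that differed between lines before induction. The DMSO libraries of shAMB stood 0.54 log2 units above those of EV (adjusted p 0.00586) without overlap, and this was the 1 member called of 10, against 1.52% of all genes. With only those 2 groups in the fit it was not called.

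ETF1, the stop codon reader, followed GSPT1 with smaller changes. In shAMB it was at 340, 357 and 337 CPM with DMSO and at 271, 259 and 247 CPM with doxycycline (log2 fold change −0.41, SE 0.0706, adjusted p 0.000105). In tumours it was at 354, 275, 311 and 312 CPM in controls and at 219, 254, 274 and 263 CPM in those labelled KO. The highest KO tumour fell just under the lowest control tumour, and the log2 fold change was −0.31 (SE 0.103, adjusted p 0.0321). That call was lost without control 1, 3 or 4 and without KO 1 or 2 (adjusted p 0.0593 to 0.0746). In sh4 ETF1 had a log2 fold change of 0.04 (adjusted p 0.692). With TPM the ETF1 values were −0.24 in shAMB and 0.21 in sh4 (adjusted p 0.0129 and 0.0332).

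In the methylosome, the log2 fold changes of the Sm protein carrier CLNS1A were the most negative in shAMB and the tumours, ahead of WDR77 and PRMT5, whereas in sh4 WDR77 fell and the other two did not pass. In shAMB, CLNS1A was at 239, 253 and 245 CPM with DMSO and at 126, 120 and 111 CPM with doxycycline. In tumours it was at 163, 113, 145.5 and 145 CPM in controls and at 80.6, 69.2, 71.4 and 75.7 CPM in those labelled KO. Groups were apart in both, although the control tumours spread more widely than the culture libraries. The log2 fold changes were −1.05 (SE 0.0698, adjusted p 3.8e-09) and −0.93 (SE 0.112, adjusted p 0.000109). In sh4, CLNS1A held 203 to 227 CPM with DMSO and 183 to 225 CPM with doxycycline, which overlap (log2 fold change −0.06, 95% confidence interval −0.21 to 0.08). In EV it held 217 to 243 CPM over the 6 libraries.

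WDR77, the scaffold subunit of the methylosome, was at 221, 223 and 223 CPM in shAMB with DMSO and at 157.5, 157 and 151 CPM with doxycycline. The replicates lay close together, and the log2 fold change was −0.52 (SE 0.0317, adjusted p 1.5e-09). In tumours it was at 189, 165, 208 and 190 CPM in controls and at 127, 120, 124 and 117 CPM in those labelled KO (log2 fold change −0.63, SE 0.0863, adjusted p 0.000261). In sh4 it went from 224.5, 230 and 222 CPM to 207, 203 and 203 CPM, a small fall of 0.14 on the log2 scale (SE 0.0316, adjusted p 0.00192). That sh4 change was not called with only the sh4 libraries fitted (adjusted p 0.0681), and with TPM it was 0.03, on a scale on which the median of all genes had shifted by 0.16.

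PRMT5, the methyltransferase itself, was at 257, 245 and 258 CPM in shAMB with DMSO and at 231, 232 and 214.5 CPM with doxycycline. The groups were apart by little, and the log2 fold change was −0.16 (SE 0.0408, adjusted p 0.00229). On the TPM scale, where the median of all genes moved up by 0.17 in shAMB, it was 0.02, and with length and GC trends removed it was −0.32. In tumours PRMT5 was at 148 to 179 CPM in controls and at 133 to 153 CPM in those labelled KO. These ranges overlapped and the log2 fold change of −0.22 did not pass (adjusted p 0.0725), although it did without control 2 (−0.28, adjusted p 0.0162) and with no filter on low counts (−0.28, adjusted p 0.0415). In sh4 and EV its log2 fold changes were 0.04 and 0.06 (adjusted p 0.418 and 0.672), and with TPM PRMT5 was higher in sh4 (0.22, adjusted p 7.3e-05).

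Among the chaperones, NAP1L1 fell in sh4, shAMB and the tumours. In sh4 it was at 1220, 1312 and 1367 CPM with DMSO and at 1057, 1013 and 857 CPM with doxycycline. In shAMB it was at 1471, 1597 and 1483 CPM with DMSO and at 752, 734.5 and 676 CPM with doxycycline. In neither line did the groups overlap, and the fall was larger in shAMB. The log2 fold changes were −0.41 (SE 0.0748, adjusted p 0.000351) and −1.07 (SE 0.0755, adjusted p 7.0e-09). With TPM the NAP1L1 falls were smaller, at −0.23 in sh4 (adjusted p 0.0236) and −0.71 in shAMB (adjusted p 1.1e-06).

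In tumours NAP1L1 was at 1204, 948, 1036 and 1092 CPM in controls and at 523, 510, 516 and 552 CPM in those labelled KO. The KO tumours lay within a narrow band far below the lowest control, and NAP1L1 fell by 1.03 on the log2 scale (SE 0.0975, adjusted p 3.2e-05). In EV the 6 libraries held 1349 to 1571 CPM and the log2 fold change was −0.07 (adjusted p 0.695). On the TPM scale the tumour values still fell by 0.80 but were not called (adjusted p 0.0997), as with CLNS1A (−0.84, adjusted p 0.0657) and WDR77 (−0.58, adjusted p 0.275). TPM spread more widely between tumours than CPM. NAP1L1 was at 163, 81.5, 150 and 168 TPM in controls and at 67.4, 107.5, 81.1 and 62.1 TPM in those labelled KO. The part of this spread in the lost calls was not tested.

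NAP1L4, the other widely expressed member of the family, was at 115, 120 and 108 CPM in shAMB with DMSO and at 93.8, 92.0 and 89.2 CPM with doxycycline (log2 fold change −0.32, SE 0.0483, adjusted p 3.3e-05). In tumours it was at 69.4 to 89.2 CPM in controls and at 63.2 to 77.1 CPM in those labelled KO, which overlap (log2 fold change −0.18, adjusted p 0.159, and −0.25 with adjusted p 0.0493 without control 2). In sh4 its log2 fold change was 0.06 (adjusted p 0.357). With TPM the NAP1L4 values were −0.14 in shAMB and 0.23 in sh4 (adjusted p 0.0293 and 0.00174).

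NAP1L5, an intronless family member that is imprinted and mainly neural, did not follow the others. In sh4 it was at 20.01, 22.7 and 23.9 CPM with DMSO and at 29.9, 28.3 and 25.2 CPM with doxycycline. All doxycycline libraries were the higher ones, by 0.33 on the log2 scale (SE 0.0815, adjusted p 0.00457). With only the sh4 libraries fitted the adjusted p was 0.0611, and with TPM the NAP1L5 rise was 0.50. In shAMB it was at 26.5, 29.1 and 25.6 CPM with DMSO and at 24.5, 25.2 and 23.1 CPM with doxycycline. That difference of −0.16 did not pass (adjusted p 0.1001), and it did with size factors by the RLE method (−0.23, adjusted p 0.0316). In tumours the log2 fold change was 0.22 (adjusted p 0.130), with 15.3 to 18.6 CPM in controls and 17.9 to 20.1 CPM in those labelled KO.

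SET was at 1269, 1299 and 1180 CPM in shAMB with DMSO and at 1061, 1020 and 936 CPM with doxycycline. The groups did not overlap, and SET fell by 0.31 on the log2 scale (SE 0.0732, adjusted p 0.00145). With TPM the SET change was −0.15 (adjusted p 0.109), and with length and GC trends removed −0.17 (adjusted p 0.000238). In tumours it was at 811 to 1136 CPM in controls and at 778 to 948 CPM in those labelled KO, and the log2 fold change of −0.16 did not pass (95% confidence interval −0.42 to 0.09, adjusted p 0.289). In sh4 it was −0.08 (adjusted p 0.382), and −0.14 with length and GC trends removed (adjusted p 0.00159).

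Whether a hairpin line responded differently from EV was tested as the difference of their doxycycline effects, and these differences share the EV libraries. Against EV, 4 of 10 members differed in sh4 (32.6% of all genes did) and 8 of 10 in shAMB (45.5% did). For sh4 these were GSPT2 at 0.67 log2 units above EV (adjusted p 0.00129), NAP1L5 at 0.32 above (adjusted p 0.0426), NAP1L1 at 0.35 below (difference −0.35, adjusted p 0.0203) and WDR77 at 0.21 below (difference −0.21, adjusted p 0.00242). The NAP1L5 difference was lost when any of several single libraries was left out, with adjusted p of up to 0.154. With TPM the NAP1L1 difference of sh4 from EV shrank to −0.15 and was not called (adjusted p 0.269), and that of WDR77 became 0.0103. With length and GC trends removed the NAP1L1 difference was −0.57. For shAMB the differences were −1.19 for GSPT1 (adjusted p 2.6e-07), −0.97 for CLNS1A (adjusted p 1.0e-06) and −1.01 for NAP1L1 (adjusted p 1.6e-06). GSPT2 differed by 0.74, WDR77 by −0.58, ETF1 by −0.35, NAP1L4 by −0.29 and PRMT5 by −0.23. With TPM, ETF1 (−0.13, adjusted p 0.318), NAP1L4 (−0.066, adjusted p 0.465) and PRMT5 (−0.0049, adjusted p 0.939) no longer differed past the threshold, and the differences of NAP1L1 and WDR77 were −0.63 and −0.36. SET differed by −0.25 and did not pass (adjusted p 0.0638), but it passed in 8 of 19 alternatives (adjusted p down to 0.0089), DESeq2 among them.

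The hairpin lines were also set against each other. For 8 of 10 members the sh4 effect lay above the shAMB effect, and 60.9% of all genes differed in either direction. Of all 14905 genes, 4145 had the sh4 effect above and 4933 below. The largest gaps were in the 3 genes that the study names, at 1.198 for GSPT1 (adjusted p 1.6e-07), 0.98 for CLNS1A (adjusted p 6.1e-07) and 0.66 for NAP1L1 (adjusted p 7.9e-05). GSPT2 was the member whose rise was closest in both lines, with a difference of −0.07 (95% confidence interval −0.34 to 0.21, adjusted p 0.664). SET missed the threshold at 0.23 (adjusted p 0.0647). Before induction, 0 of 10 members differed between sh4 and EV, against 1.12% of all genes, and 1 of the 10, NAP1L1, had an unadjusted p under 0.05 (log2 difference −0.17). DESeq2 gave 0 as well.

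Levels can be compared between genes only per length, for which CPM was divided by the gene length that the authors deposited. These lengths closely match the mean transcript lengths derived below for EV DMSO library 1, and the same length was used in every group. NAP1L1, and less so CLNS1A, had shorter derived lengths in shAMB with doxycycline and KO tumours. Their levels per length are therefore understated there. In EV with DMSO the order ran from SET at 438 ± 28.4 CPM per kb and NAP1L1 at 383 ± 29.0 through CLNS1A at 169 ± 9.82 to PRMT5 at 96.2 ± 3.74, WDR77 at 93.5 ± 2.03 and ETF1 at 87.9 ± 6.21 (SD, n = 3). Below these came GSPT1 at 47.7 ± 3.32, NAP1L4 at 42.3 ± 1.38, NAP1L5 at 12.03 ± 0.882 and GSPT2 at 2.55 ± 0.187. SET and NAP1L1, PRMT5, WDR77 and ETF1, and GSPT1 and NAP1L4 lay within about 2 SD of their neighbours in this order. In shAMB with doxycycline, CLNS1A at 87.0 ± 5.55 had come level with PRMT5 at 89.5 ± 3.96, and GSPT1 at 20.8 ± 1.21 had dropped below NAP1L4 at 36.4 ± 0.931. In KO tumours GSPT1 (18.5 ± 1.83, n = 4) was likewise below NAP1L4 (28.0 ± 2.25).

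Ratios within a library remove scaling between libraries, and 8 pairs of partners were compared in each of 4 comparisons. GSPT1 exceeded GSPT2 by 13.4 times per length in shAMB with DMSO and by 3.25 times with doxycycline. In tumours the ratio fell from 16.2 to 4.53, in sh4 from 15.6 to 9.07, and in EV it was 18.7 and 17.2. The log2 ratio thus changed by −2.05 in shAMB, −1.84 in tumours, −0.78 in sh4 and −0.13 in EV. Exact two-sided permutation tests gave p = 0.0286 in tumours and p = 0.1 in each hairpin line, the smallest values that 4 against 4 and 3 against 3 libraries allow, and p = 0.4 in EV. Of the 8 ratios, 8 in shAMB and 8 in the tumours reached that smallest p (Benjamini-Hochberg adjusted 0.1 and 0.0286), as did 6 in sh4 (adjusted 0.133) and 2 in EV (adjusted 0.4). The EV ratios were CLNS1A to WDR77, with a log2 change of −0.13, and NAP1L1 to NAP1L5, with −0.069. No ratio in culture could reach 0.05.

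**Figure D3:**
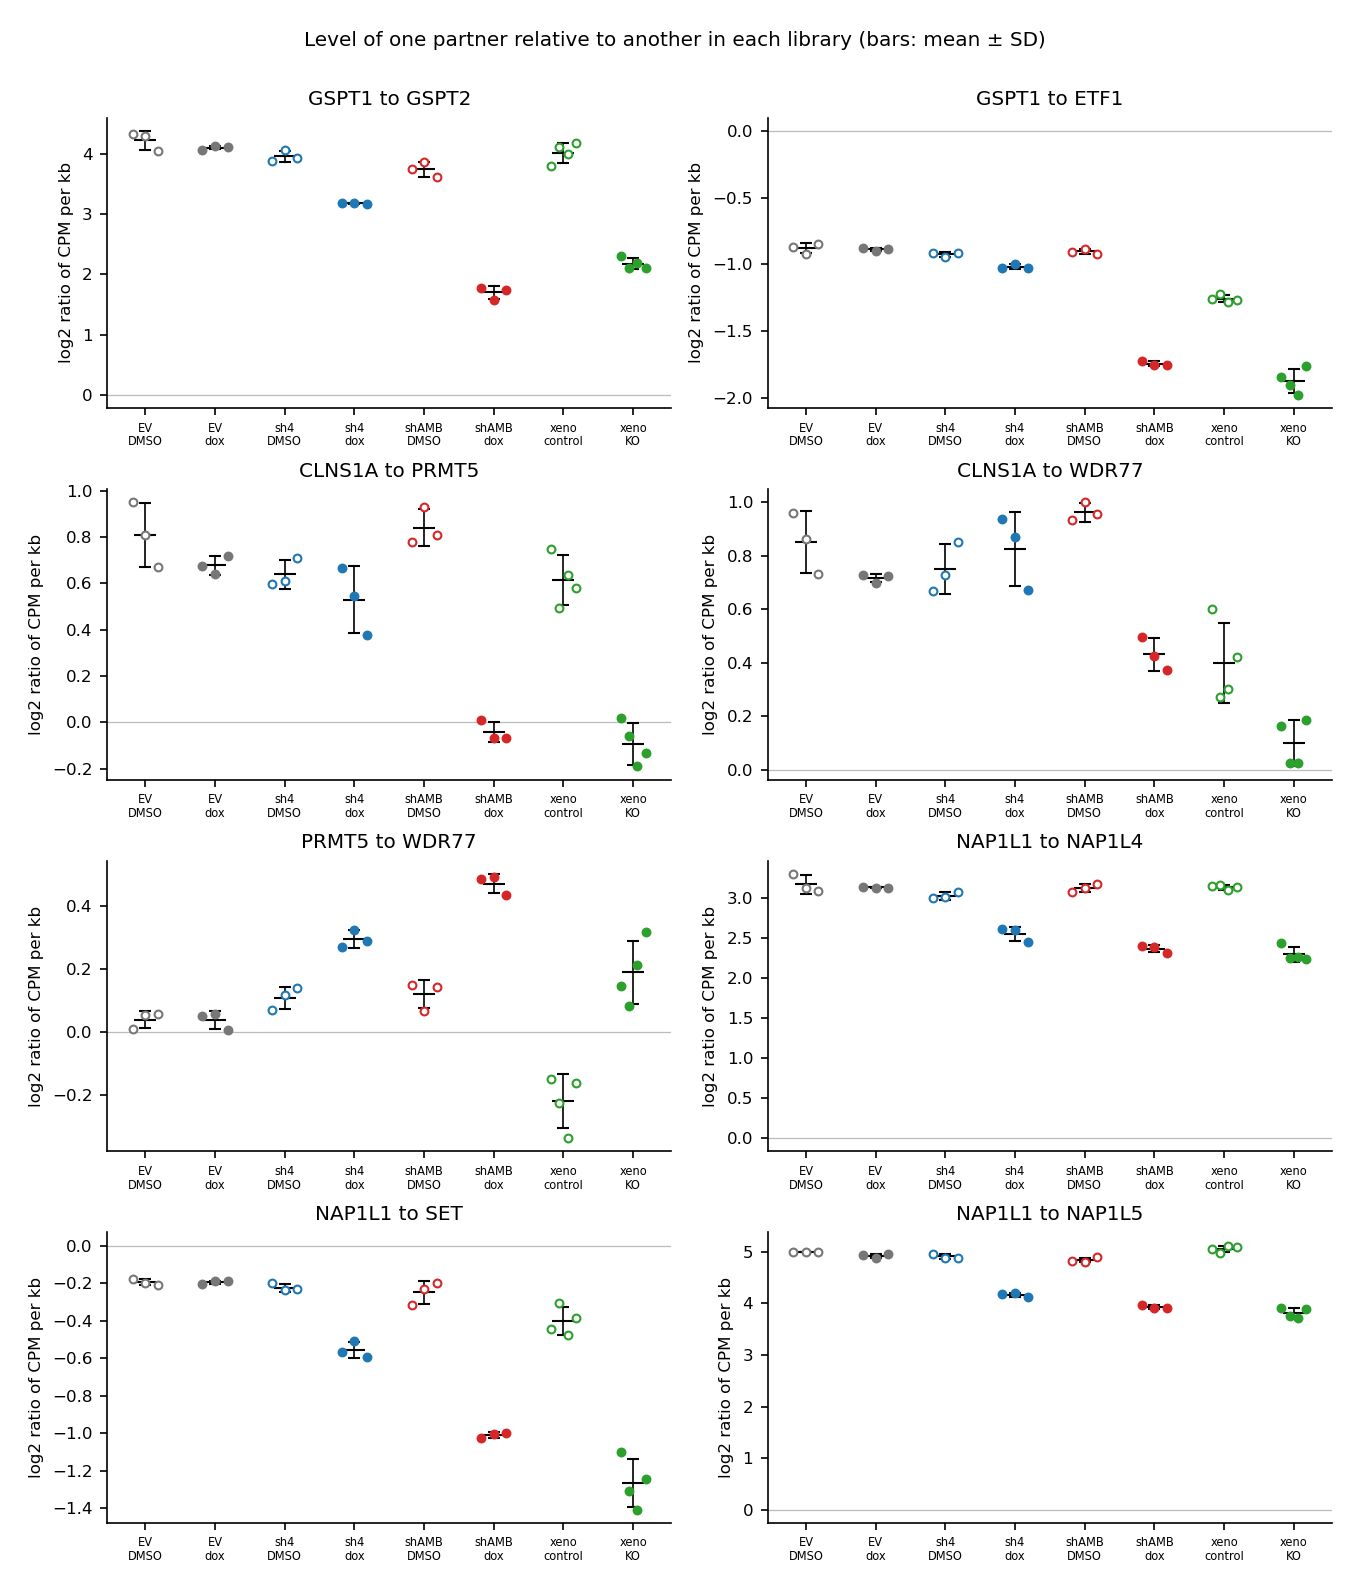
Log2 ratio of CPM per kb between partners (vertical axes) in each library by group, with open points for DMSO or control tumours, filled points for doxycycline or KO tumours, and bars for mean ± SD. The ratio of GSPT1 to GSPT2 steps down in sh4, further in shAMB and in the KO tumours, and that of CLNS1A to PRMT5 comes down to about 0 in shAMB with doxycycline and in KO tumours.

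Against ETF1, GSPT1 went from a ratio of 0.535 to 0.299 in shAMB and from 0.418 to 0.273 in tumours. CLNS1A to PRMT5 went from 1.79 to 0.972 in shAMB and from 1.53 to 0.939 in tumours. Within the methylosome core, PRMT5 to WDR77 rose from 1.09 to 1.39 in shAMB, from 1.08 to 1.23 in sh4 and from 0.861 to 1.14 in tumours. NAP1L1 lost ground to each of its relatives in the 3 settings in which it fell. Against NAP1L4 its ratio went from 8.75 to 5.18 in shAMB, from 8.18 to 5.89 in sh4 and from 8.82 to 4.93 in tumours. Against SET it went from 0.841 to 0.497, from 0.856 to 0.680 and from 0.756 to 0.416. In sh4, the ratios of CLNS1A to PRMT5 and to WDR77 overlapped between groups (exact permutation p = 0.4 for both).

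NAP1L1 differed in a second way, which was examined after its TPM and its counts had been seen to change by unequal amounts. RSEM scales TPM by transcript length, so that the ratio of counts to TPM gives the mean length of the transcripts it assigned, weighted by abundance, once genes with 1 listed transcript set the scale. For NAP1L1, which has 3 transcripts in the deposited table, this length was 3735, 3797 and 3767 bases in shAMB with DMSO and 3327, 3323 and 3336 bases with doxycycline. In tumours it was 3886, 3901, 3789 and 3780 bases in controls and 3400, 3333, 3356 and 3521 bases in those labelled KO. The libraries were apart in both, with mean differences of −438 and −436 bases, given without a test because this same ratio had prompted the measure. Differences were smaller in EV, from 3796 ± 24.5 to 3707 ± 4.73 bases without overlap (n = 3 each), and in sh4, from 3744 ± 40.8 to 3699 ± 22.7 bases with overlap (n = 3 each). Whether these differ from the shAMB difference was not tested. In shAMB and the tumours, the fall of NAP1L1 counts thus went along with assignment of the remaining reads to shorter transcripts. NAP1L1 ratios from TPM moved less there than those above. In sh4 the counts fell while the lengths overlapped, and in EV the length was shorter without a called change in counts.

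**Figure D4:**
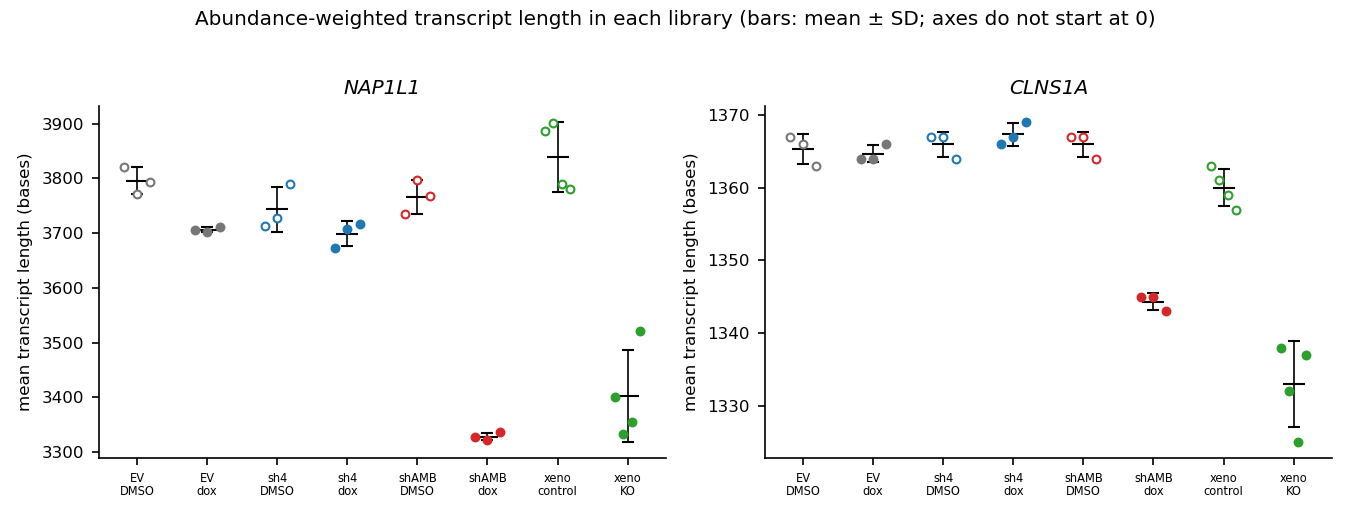
Mean transcript length in bases (vertical axes, which do not start at 0), weighted by abundance and derived from counts and TPM, for NAP1L1 and CLNS1A in each library by group, with bars for mean ± SD. NAP1L1 lies between 3673 and 3901 bases except in shAMB with doxycycline and in KO tumours, where it lies between 3323 and 3521.

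CLNS1A showed the same direction on a smaller scale, from 1366 ± 1.73 to 1344 ± 1.15 bases in shAMB (n = 3 each) and from 1360 ± 2.58 to 1333 ± 5.94 bases in tumours (n = 4 each), without overlap in either. For GSPT1 the length stayed at 7153 to 7154 bases on average in every group. NAP1L4, with 2 listed transcripts, stayed at 2518 bases. SET went from 2650 ± 7.02 to 2677 ± 13.1 bases in shAMB without overlap (n = 3 each) and averaged 2674 bases in both tumour groups. ETF1 was longer without overlap by 13.3 bases in shAMB and by 16 bases in EV. PRMT5 was shorter by 2 bases in tumours without overlap. For WDR77, GSPT2 and NAP1L5, with 1 transcript each, the measure has nothing to vary. The transcripts themselves are not resolved in the tables, and the annotation by which RSEM divided the reads is known only from the RefSeq identifiers listed there.

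Other genes of the 3 processes were taken from 3 lists. In termination and decay, 28 of 29 listed genes were tested and 0 changed in EV. In sh4 the calls were 4 up and 5 down, in shAMB 6 up and 7 down, and in tumours 2 up and 6 down. These are 9, 13 and 8 of 28 genes, where 40.9%, 66.0% and 41.1% of all genes were called. In shAMB, PELO, which rescues stalled ribosomes, was lower by 0.85 (log2 fold change −0.85, adjusted p 4.5e-08), as was PABPC1, the poly(A)-binding protein that contacts eRF3 (−0.76, adjusted p 7.3e-09). UPF1, the helicase of nonsense-mediated decay, was higher (0.65, adjusted p 0.00822). The median of this list was −0.05 in shAMB, against 0.10 over all genes.

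In the methylosome and SMN list, all 30 genes were tested. In shAMB 15 were lower, where 28.4% of all genes were, and 3 higher, with a median of −0.21. In tumours 16 were lower, where 19.9% of all genes were, and 2 higher, with a median of −0.42. In sh4, 5 were lower and 2 higher, where 40.9% of all genes were called in either direction, and in EV none of the 30 passed in edgeR. GEMIN5, the snRNA-binding subunit of the SMN complex, fell in shAMB (log2 fold change −0.85, adjusted p 6.7e-11), together with COPRS, a PRMT5 adaptor (−0.75, adjusted p 2.1e-08). In tumours the Sm protein gene SNRPD2 (−0.78, adjusted p 0.000333) and the methyltransferase gene CARM1 (−0.89, adjusted p 0.00285) were among those that fell. SNUPN, the import adaptor of assembled snRNPs, was lower in sh4 (−0.34, adjusted p 0.000857) and higher in tumours (0.43, adjusted p 0.0142).

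In the nucleosome assembly list, 33 of 35 genes were tested in culture and 32 in tumours. In shAMB 16 were lower and 8 higher, in tumours 20 were lower and 6 higher, in sh4 7 were lower and 4 higher, and in EV 0 passed. Over all genes 66.0%, 41.1% and 40.9% were called in shAMB, tumours and sh4. SUPT16H, a subunit of the FACT complex that moves histones at the polymerase, fell further than the members did, with −1.42 in shAMB (adjusted p 3.1e-11) and −1.27 in tumours (adjusted p 7.1e-06). The oocyte chaperone gene NPM2 was higher in both (1.29, adjusted p 0.000141, and 0.81, adjusted p 0.0117), and ANP32B fell in shAMB (−0.87, adjusted p 3.5e-09). In sh4, NPM1 was lower (−0.39, adjusted p 0.000191). These lists are described by their counts and medians, and nothing particular to them was tested.

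**Figure D5:**
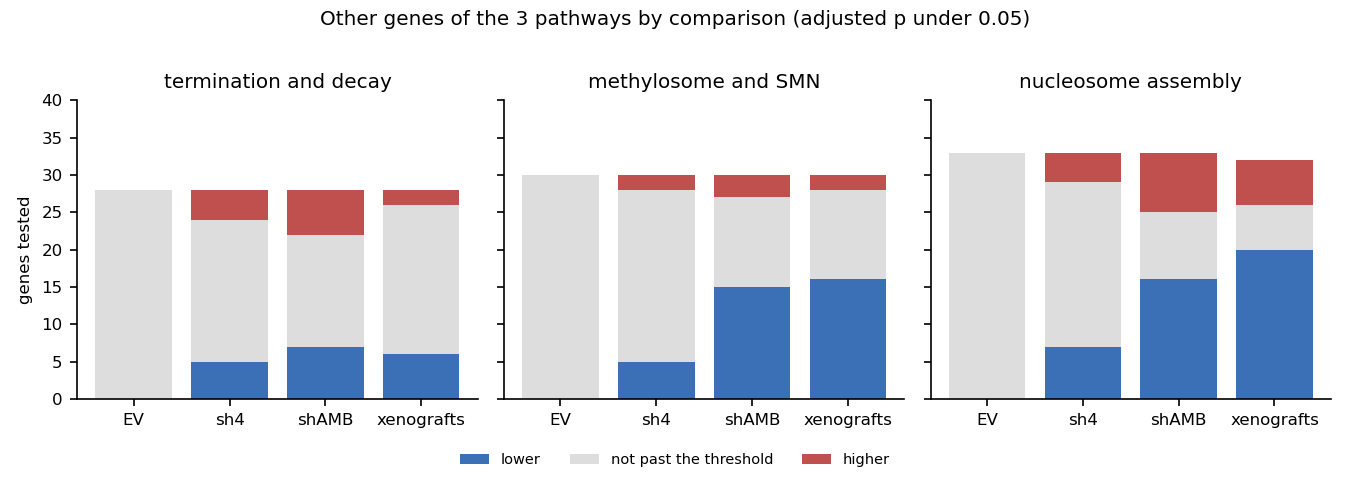
Number of genes tested (vertical axis) in the lists of termination and decay, methylosome and SMN, and nucleosome assembly that were lower (blue), not past the threshold (grey) or higher (red) in EV, sh4, shAMB and tumours, at an adjusted p-value under 0.05. EV has no call in the 3 lists, and lower calls reach 15 and 16 of 30 in the methylosome and SMN list in shAMB and tumours.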

How the data were processed

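RNA from 26 libraries was sequenced as paired reads with a stranded total RNA kit, per the labels, which also give polyA RNA as the molecule. The submitters' processing notes list STAR, SAMtools, RSEM and the build hg38 without versions, and the counting options are not given in the sources used here. The authors deposited RSEM expected counts, estimated counts of which 91.8% of values were whole at the 2 decimals given in culture and 91.0% in tumours, and TPM, scaled by the authors for transcript length and library. They also deposited a gene length in bases. No column of sample values was left out. Columns headed Neg and Pos were matched to DMSO and doxycycline titles by line and replicate number.

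Expected counts were rounded, and edgeR 4.0.16 (R 4.3.3) was run with filterByExpr, TMM factors (0.974 to 1.07 in culture, 0.936 to 1.09 in tumours), glmQLFit and glmQLFTest, two-sided, in 1 fit of the 18 culture libraries and 1 of the 8 tumours. Ratios were compared by exact permutation tests (scipy 1.17.1). Transcript lengths were scaled by genes with 1 listed transcript and at least 20 TPM. Coordinates come from GENCODE v44 and start sites and sequences from RefSeq, both on GRCh38. All 10 members were named by symbol, and from each other list the 2 genes with the largest called change in each direction, of which the text gives a selection. The members, lists and tests were chosen with earlier results of these data known.

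Replicates are separate samples by their labels, but nothing says that they came from separate cultures, so p-values measure the spread between these libraries. No replicates were alike within sampling noise (chi-square per degree of freedom 1.82 to 66.1 in culture and 29.4 to 263 in tumours). The median biological coefficient of variation was 0.115 in culture and 0.186 in tumours. Alternatives were RLE size factors, no filter on low counts, DESeq2 1.42.0, fits of only the groups compared, a replicate block, removal of length and GC trends, limma 3.58.1 on log2(TPM + 0.1), and each replicate left out. TPM ratios and the transcript length measure were added after the data had been seen. The neuroblast marker list is not reported here.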

Additional observations from a re-analysis of the deposited data

Results flagged for a closer look

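Differences between lines in the doxycycline effect that passed edgeR's test of the difference itself are collected here, on the log2 scale. In sh4 against EV these were 0.67 for GSPT2, −0.21 for WDR77, −0.35 for NAP1L1 and 0.32 for NAP1L5. In shAMB against EV they were −1.19 for GSPT1, 0.74 for GSPT2, −0.35 for ETF1, −0.97 for CLNS1A, −0.23 for PRMT5, −0.58 for WDR77, −1.01 for NAP1L1 and −0.29 for NAP1L4. In sh4 against shAMB they were 1.198 for GSPT1, 0.45 for ETF1, 0.98 for CLNS1A, 0.21 for PRMT5, 0.37 for WDR77, 0.66 for NAP1L1, 0.38 for NAP1L4 and 0.48 for NAP1L5. These 3 comparisons share libraries with each other. No member had a tumour library that stood apart from its group by Dixon's test.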

How the results depend on the processing

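Over the alternatives for single genes, 925 values kept their side of the threshold, 43 lost a call, 28 gained one and 5 reversed. A reversal was counted only where the main or the alternative value was called. The 925 thus include changes of sign between values that were not called, such as CLNS1A in sh4 (−0.13 to 0.11 over the alternatives). With TPM, WDR77 in sh4 became 0.0328, PRMT5 in shAMB 0.0163, and the differences of sh4 from EV became 0.20 for PRMT5 and 0.0103 for WDR77, on a scale that moved the median of all genes by 0.16 to 0.21. With length and GC trends removed, the GSPT1 difference of sh4 from EV was −0.28. The causes were not tested. With only the groups compared, 2 members changed in sh4 (25.8% of all genes) and 0 between the uninduced shAMB and EV lines (0.608%). With TPM, 2 members changed in tumours (13.3% of all genes) and 5 differed between shAMB and EV (51.5%). TPM kept 24 of 32 ratio changes within 1 SD and gave other values for NAP1L1: against NAP1L4 −0.57 in shAMB and −0.66 in tumours, against SET 0.0401 in EV, −0.56 in shAMB and −0.68 in tumours, and against NAP1L5 −0.033 in EV, −0.73 in shAMB and −1.06 in tumours.

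Without each replicate in turn, the members changed numbered 0 in EV, 4 in sh4, 9 in shAMB and 5 to 8 in tumours. The differences numbered 3 to 4 for sh4 from EV, 8 to 9 for shAMB from EV and 8 to 9 for sh4 from shAMB, and between uninduced lines 0 for sh4 and 1 for shAMB. The NAP1L1 length difference stayed between −453 and −422 bases in shAMB and between −476 and −413 in tumours.

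Replicate numbers did not pair the libraries (correlations of same-numbered deviations −0.60 to 0.37), so a replicate block was an alternative only. With it 4 members changed in sh4, 9 in shAMB and 5 in tumours, where ETF1 was lost (adjusted p 0.101).

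PRMT5 and NAP1L4 in tumours passed without control 2 (adjusted p 0.0162 and 0.0493).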

Other observations

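The genes whose CPM followed the 3 genes named by the study most closely over the 18 culture libraries were ranked by Pearson's r on the log2 scale among 9237 genes. For GSPT1 these were CDV3 (r = 0.998), SPDL1 (0.997) and HSDL1 (0.996), and for CLNS1A they were CD24 (0.998), CDV3 (0.996) and SPDL1 (0.996). For NAP1L1 they were UBE2K (0.997), BRCA1 (0.996) and GBAS (0.994). GSPT1 and CLNS1A thus had CDV3 and SPDL1 in common, and r between GSPT1 and CLNS1A themselves was 0.996. The libraries share lines and groups. For GSPT1, CLNS1A and NAP1L1 the 3 libraries of shAMB with doxycycline lie apart from the other culture libraries. Thus r describes likeness over groups and no relation within them.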
